A study of Mus musculus with 7 samples.

Results

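In hippocampal DNA of the mouse, 880 windows of 10 kb were found in which 2 libraries, Tet2 CKO replicates 2 and 3, both carried at least 3 times the 5hmC signal of any other library. They were chosen from 226979 autosomal windows, all those of chromosomes 1 to 19 with a mean of at least 20 reads over the 7 libraries, and make up 0.388% of them. Signal was measured in CPM, the read count scaled to a common total of autosomal reads, after bins of 500 bp with a mean above 100 reads had been dropped. Members were selected on the CPM of all 7 libraries, so their high level in Tet2 CKO replicates 2 and 3 is a description of the choice and was not tested.

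The libraries came from hippocampus of unstressed C57BL/6 mice and were enriched for 5hmC with an antibody. There were 3 wild-type libraries (WT) and 4 libraries of mice labelled Tet2 CKO, a conditional knockout of Tet2. The promoter that drives the recombinase, the deleted exons, the cell types reached, and the age and sex of the mice are not given in the sources used here. Whether each library came from its own mouse is not stated either, so a p-value here measures the spread between libraries, which may be technical.

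5-hydroxymethylcytosine (5hmC) is made from 5-methylcytosine by the TET dioxygenases, of which Tet2 encodes one, and is abundant in the DNA of neurons, where it lies mainly over the bodies of active genes. Antibody enrichment pulls down DNA fragments that carry the mark, and the pulled-down DNA also holds fragments that were carried along without it. In whole tissue, fewer cells with the mark and less of the mark per cell cannot be told apart. No input library was used here, so the background of such fragments was not subtracted. No annotation or genome sequence of the build of the files, mm9, was used here. The windows are therefore given by position, without gene names or sequences.

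Library totals ran from 26134505 to 49414761 reads, and 11146988 to 28885986 autosomal reads per library stayed after the high-count bins were dropped. Shares of a library's reads in high-count bins were taken over all bins, those outside the autosomes included. The share was 69.8% and 74.1% in Tet2 CKO replicates 2 and 3, between 49.6% and 54.3% in 4 of the others, and 29.8% in WT replicate 1. The 5 libraries other than Tet2 CKO replicates 2 and 3 are called the other 5 below. Most bins with reads held an even number of them, from 71.7% of such bins in WT replicate 1 to 83.6% in WT replicate 2, so reads were not independent counts and no counting intervals are given.

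The signal in the chosen windows fell into 3 levels. In Tet2 CKO replicates 2 and 3 the median window had 21.4 and 22.0 CPM. In WT replicates 2 and 3 it had 5.74 and 5.75 CPM, and in Tet2 CKO replicates 1 and 4 it had 5.58 and 5.66 CPM. WT replicate 1 had the lowest median, 3.05 CPM. The libraries other than the chosen pair and WT replicate 1 thus lay close together, with both genotypes among them, while the Tet2 CKO group was split between a high pair and a low pair. The 3 levels fell in the same order as the shares in high-count bins given above. With the high-count bins of the autosomes kept, or with each library scaled by the total of all its bins, 0 windows met the rule. The set therefore depends on leaving the high-count bins out.

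The median over all windows tested was 2.78 and 2.74 CPM in Tet2 CKO replicates 2 and 3, 3.15 CPM in WT replicate 1 and between 3.86 and 3.95 CPM in the remaining 4. The chosen windows were therefore not empty outside the pair that chose them. Their median lay at the 98.3 percentile of all windows in both Tet2 CKO replicates 2 and 3, and between the 73.8 and 76.9 percentile in the 4 libraries other than WT replicate 1. In WT replicate 1 it lay at the 48.3 percentile, and 407 of the 880 were above that library's median window. The working description of these windows as high in the pair and in no other library held only as a ratio, since most were above the median window in 4 of the other 5 as well.

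**Figure D1:**
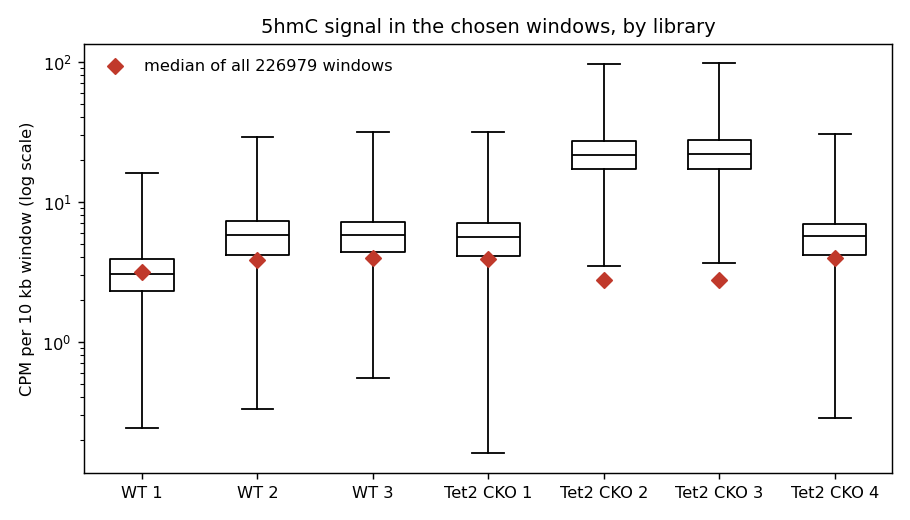
The 5hmC signal of the 880 chosen windows in each library, in CPM on a log axis, with boxes for the quartiles, lines inside for the median and whiskers to the lowest and highest window. Diamonds mark the median of all 226979 windows in the same library, which is 2.78 CPM in Tet2 CKO 2 against 21.4 CPM for the chosen windows, and 3.15 CPM in WT 1 against 3.05 CPM.

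The chosen windows took 1.94% and 1.98% of the autosomal reads of Tet2 CKO replicates 2 and 3. They took 0.276%, 0.514% and 0.516% of those of WT replicates 1, 2 and 3, and 0.50% and 0.501% of those of Tet2 CKO replicates 1 and 4. Among the 5 libraries that did not set the windows high, WT took 0.435% ± 0.138 (SD, n = 3). Tet2 CKO replicates 1 and 4 took 0.50% ± 0.000867 (SD, n = 2). WT replicates lay on both sides of these values. The rule capped the highest of these same 5 libraries, so the difference of 0.0650 percentage points is a description and is given no test. Without WT replicate 1 the difference was -0.0147 percentage points, so its direction rested on that library.

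In the chosen windows, Tet2 CKO replicates 2 and 3 were close to each other. The rule required both to reach 3 times the same ceiling, which favours windows where they are alike. Their closeness is therefore a description. The ratio of replicate 3 to replicate 2 had a median of 1.01 and quartiles of 0.946 and 1.08, and 874 of the 880 windows lay within 1.5-fold. Replicate 3 was the higher of the pair in 492 windows. When replicate 2 alone chose the windows at 3 times the highest of the other 5, there were 2079, and in replicate 3, which had no part in that choice, 1912 of them (92.0%) reached 2 times and 880 (42.3%) reached 3 times, with a median of 2.89. With replicate 3 alone choosing there were 2275 windows, and in replicate 2 their median was 2.85 times. Both ratios have the highest of the other 5 as their denominator, so choosing low ceilings raises the ratio of either library, and these shares are descriptions.

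The ratio of the lower of the pair to the highest of the other 5 ran from 3.00 to 4.42, with a median of 3.18, and 17 windows reached 4. Against the mean of the other 5, the mean of the pair was 4.24-fold higher in the median window, while over all windows tested the same ratio had a median of 0.745. The windows are the upper end of a continuous range, since 12371 windows (5.45%) reached 2 times and none reached 5 times. Of the 880, 869 had a mean of at least 20 reads over the other 5 alone, and 11 passed the count filter only through the reads of the pair. In 40 windows at least 1 of the other 5 had under 20 reads.

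On either side of the threshold the windows looked alike. The nearest window inside it, at chromosome 13, 83390001 to 83400000, had 30.8 and 35.6 CPM in Tet2 CKO replicates 2 and 3. WT replicates 1, 2 and 3 had 3.43, 7.87 and 10.3 CPM there, and Tet2 CKO replicates 1 and 4 had 6.61 and 7.67 CPM. The nearest window outside it, at chromosome 6, 53430001 to 53440000, had 16.2 and 19.6 CPM in the pair, 4.88, 5.41 and 5.27 CPM in WT replicates 1, 2 and 3, and 3.43 and 4.02 CPM in Tet2 CKO replicates 1 and 4. WT replicate 3 set the ceiling in the first and WT replicate 2 in the second. In the next 4 windows inside, the lower of the pair had between 8.95 and 28.0 CPM and the highest of the other 5 between 2.98 and 9.32 CPM. In the next 4 outside, these values were between 10.3 and 22.1 CPM and between 3.44 and 7.38 CPM.

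A high level in the pair was not enough to be chosen. The lower value of the pair had quartiles of 16.5 and 26.0 CPM over the chosen windows, and 6525 windows of the genome lay in that range, of which 444 (6.80%) were chosen. In the 6081 that were not, the pair had medians of 20.7 and 21.3 CPM, close to the 21.4 and 22.0 CPM of the chosen windows in the range. At a given level of the pair the rule is decided by the highest of the other 5, so these had to be higher there. They had medians of 3.63, 7.38 and 7.48 CPM in WT replicates 1, 2 and 3 and 7.09 and 6.96 CPM in Tet2 CKO replicates 1 and 4. In the chosen windows of the range these were 3.06, 5.78 and 5.75 CPM, and 5.66 and 5.77 CPM. The windows that were not chosen still had a median ratio of 2.28 to the highest of the other 5. Most windows of this level were thus higher in the pair than in any other library, whether chosen or not. Above the range, 217 of 1012 windows (21.4%) were chosen.

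The highest ratios came from windows with few reads. At chromosome 7, 8020001 to 8030000, the ratio was 4.42, with 4.49 and 4.23 CPM in Tet2 CKO replicates 2 and 3. WT replicates 1, 2 and 3 had 0.658, 0.328 and 0.693 CPM there, and Tet2 CKO replicates 1 and 4 had 0.956 and 0.717 CPM. These values stand for 50 and 51 reads in the pair against 4 to 19 reads in each of the other 5. The windows at chromosome 7, 34630001 to 34640000, and chromosome 17, 18810001 to 18820000, had ratios of 4.38 and 4.24 and were of the same kind, with 71 to 90 reads in each of the pair and 9 to 24 in each of the other 5.

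Well-covered windows followed closely. The window at chromosome 4, 16700001 to 16710000, had 24.4 and 24.7 CPM in the pair, from 272 and 298 reads. It had 1.87, 5.00 and 5.82 CPM in WT replicates 1, 2 and 3, and 5.82 and 5.81 CPM in Tet2 CKO replicates 1 and 4. Apart from WT replicate 1, the other 5 were nearly level there. At chromosome 7, 21920001 to 21930000, the pair had 22.0 and 22.1 CPM, while WT replicates 1, 2 and 3 had 1.87, 4.68 and 2.98 CPM. Tet2 CKO replicates 1 and 4 had 5.26 and 4.80 CPM there.

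Which of the other 5 was highest varied from window to window. WT replicate 3 was highest in 255 windows, WT replicate 2 in 247, Tet2 CKO replicate 4 in 193, Tet2 CKO replicate 1 in 182 and WT replicate 1 in 3. WT replicate 1 was the lowest of the other 5 in 786 windows (89.3%), against 35.5% of all windows tested and 93.1% of the windows of like level that were not chosen. A low WT replicate 1 was therefore shared with windows of that level. The highest of the other 5 was 2.15 times the lowest in the median window, and 1.37 times without WT replicate 1.

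Genotype was compared in the 5 libraries other than the pair, with edgeR's quasi-likelihood test over all 226979 windows. The rule used the highest CPM of these 5 as its ceiling, which caps a high group, so the values of the chosen windows in this fit are a description and nothing is read from their counts. None of the 880 was called at adjusted p under 0.05, where 0% of all windows were called. The lowest adjusted p of a chosen window was 1.0 (edgeR, Benjamini-Hochberg). At unadjusted p under 0.05, edgeR put 1 chosen window higher and 0 lower in Tet2 CKO replicates 1 and 4, while 3781 (1.67%) and 3740 (1.65%) of all windows were higher and lower. DESeq2 called 2 of all windows and 0 of the chosen ones. The median log2 fold change of the chosen windows was 0.18, with quartiles of 0.02 and 0.31, and that of all windows was -0.02. Leaving out WT replicate 1 brought the median of the chosen windows to -0.03. Of the 880, 106 had both Tet2 CKO replicates above all WT replicates, where 10.4% of all windows did, and 5 had both below, where 7.42% did.

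The single window at unadjusted p under 0.05 was at chromosome 3, 80040001 to 80050000. WT replicates 1, 2 and 3 had 1.77, 2.30 and 3.88 CPM there, Tet2 CKO replicates 1 and 4 had 5.02 and 5.81 CPM, and the pair that chose it had 19.0 and 25.5 CPM. The groups did not overlap, and the log2 fold change over the 5 libraries was 1.01 (SE 0.44, edgeR adjusted p = 1.0). The next by p in this direction were chromosome 8, 58280001 to 58290000, and chromosome 5, 51240001 to 51250000, each with a log2 fold change of 0.73 (SE 0.41). Among windows lower in Tet2 CKO, the smallest p fell at chromosome 3, 63320001 to 63330000, with 4.29, 4.76 and 5.47 CPM in the WT replicates and 2.31 and 3.51 CPM in Tet2 CKO replicates 1 and 4 (log2 fold change -0.78, SE 0.44). It was followed by chromosome 7, 24940001 to 24950000, at -0.88 (SE 0.66) and chromosome 3, 74860001 to 74870000, at -0.98 (SE 0.77). None of these passed the adjusted threshold.

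The comparison of all 7 libraries contains the pair that chose the windows, and its values are given as a description. The log2 fold change of Tet2 CKO over WT was above 0 in all 880 windows, with a median of 1.74 and quartiles of 1.64 and 1.86. Even so, edgeR called none at adjusted p under 0.05, as it called 0% of all windows, and the lowest adjusted p of a chosen window was 0.356. At unadjusted p under 0.05, 794 chosen windows were higher and 0 lower, where 10.2% and 3.85% of all windows were. DESeq2 called 7 chosen windows higher, where 0.173% of all windows were. When replicate numbers entered the edgeR fit as a block, it called 876 chosen windows higher, where 14.1% of all windows were. Tet2 CKO replicates 2 and 3 make up 2 of the 3 pairs of that block.

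Place and size came next. The 880 windows formed 864 domains, counting windows that touch as 1 domain, of which 848 were single windows and 16 were pairs. No domain was longer than 20 kb. Allowing 5 missing windows between members joined 141 of them into 58 domains of 2 members and 8 of 3 or more, of up to 130 kb and at most 4 members. The distance between the starts of neighbouring members on a chromosome had a median of 980 kb and quartiles of 310 and 2950 kb. At this threshold most were single windows. The longest domain was 70 kb at a ratio of at least 2, 50 kb with TMM scaling and 40 kb without Tet2 CKO replicate 2.

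Some of the named pairs held a single stretch that crossed the window edge, and others held 2 separate stretches. At chromosome 2, 116090001 to 116110000, Tet2 CKO replicates 2 and 3 had 38.2 and 39.6 CPM in the first window and 19.7 and 20.1 CPM in the second. WT replicates 1, 2 and 3 had 3.25, 9.19 and 9.77 CPM in the first and 1.25, 5.25 and 4.85 CPM in the second, and Tet2 CKO replicates 1 and 4 had 12.6 and 8.68 CPM and then 5.50 and 3.01 CPM. A single raised stretch of 11.5 kb, from 116091501 to 116103000, crossed the edge between them. At chromosome 4, 21500001 to 21520000, a single stretch also crossed the edge, and the pair had 21.1 and 20.4 CPM in the first window and 17.0 and 14.7 CPM in the second. At chromosome 4, 82420001 to 82440000, 2 separate stretches of 6.5 and 6.0 kb ran from 82418001 to 82424500 and from 82432001 to 82438000. Stretches of 6.5 and 6.5 kb were likewise separate at chromosome 4, 110160001 to 110180000. So were those of 6.0 and 5.5 kb at chromosome 5, 42420001 to 42440000.

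Within a window the signal was spread over several kb. The richest 500 bp bin held a median of 14.9% of the signal of the pair and the richest 5 bins 55.7%. In 3 of the 880 windows the richest bin held over 50% of it, so the windows were not made by single bins. The mean profile was aligned on the richest bin of Tet2 CKO replicate 2, which favours that library at the centre. In replicate 3, which the alignment did not use, the mean level was 3.23 CPM per bin at the centre, 1.20 CPM at 2 kb to either side, 0.498 CPM at 5 kb above and 0.325 CPM at 10 kb above. The mean of the other 5 was 0.620 CPM at the centre, 0.174 CPM at 5 kb above and 0.151 CPM at 10 kb above. The ratio of replicate 3 to the other 5 was 5.21 at the centre, 2.87 at 5 kb above and 2.16 at 10 kb above, so the pair stayed higher beyond the top itself.

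**Figure D2:**
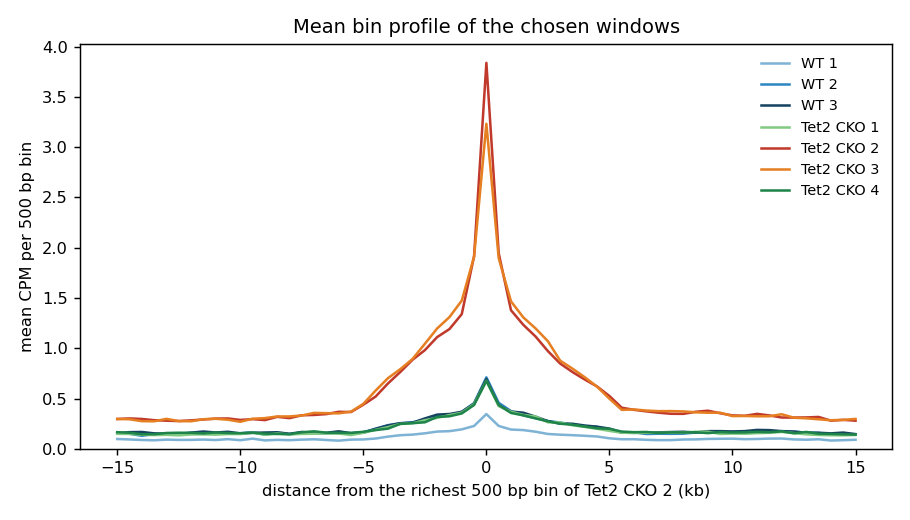
Mean signal per 500 bp bin, in CPM, against the distance from the richest bin of Tet2 CKO 2 in kb, over the 880 chosen windows and with a line per library. Tet2 CKO 3 reaches 3.23 CPM at the centre against a mean of 0.620 CPM for the other 5, and WT 1 is the lowest line at 0.345 CPM.

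The raised stretch of each window was measured as the run of bins around its top where the 3-bin mean of the pair stayed at or above 25% of the highest 3-bin mean. Its length had a median of 6.5 kb and quartiles of 5.5 and 7.0 kb. The lengths had a narrow mode, with 167 windows at 6.0 kb and 194 at 6.5 kb, and 606 of the 880 (68.9%) lay between 5 and 8 kb. Stretches over 10 kb numbered 96, and 3 were under 2 kb. In 486 windows the stretch ran past an edge of the 10 kb window, so the fixed grid cut many of them. At 50% of the top the median length was 4.5 kb.

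Windows that were not chosen had stretches of much the same length. In the 6081 windows of like level in the pair that were not chosen, the stretch had a median of 6.5 kb and quartiles of 6.0 and 7.0 kb, and 77.3% lay between 5 and 8 kb. In the 11491 windows with a ratio from 2 to under 3, the median was 6.0 kb, and 66.2% lay between 5 and 8 kb. When the other 5 were used to measure the stretch in the chosen windows, its median was 7.0 kb with quartiles of 6.5 and 9.5 kb.

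**Figure D3:**
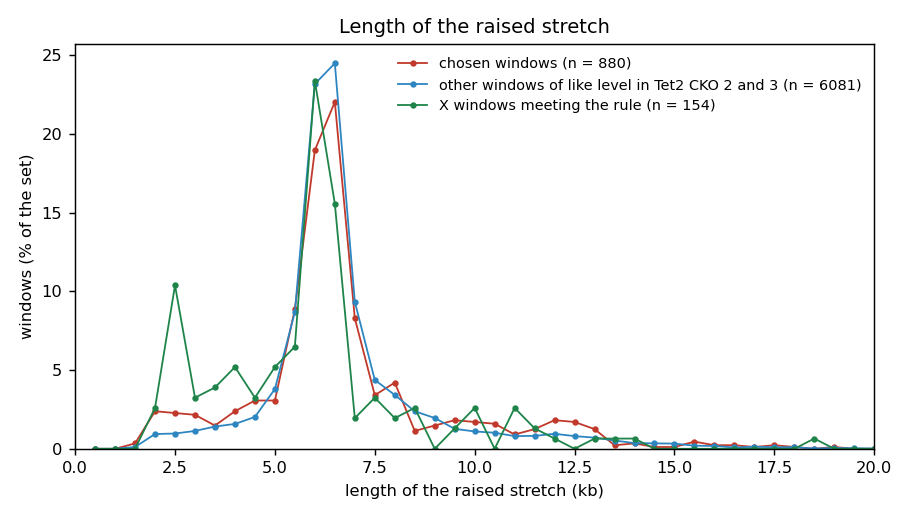
Length of the raised stretch in kb against the share of windows in %, for the 880 chosen windows, the 6081 windows of like level in Tet2 CKO 2 and 3 that were not chosen, and the 154 windows of the X chromosome that met the same rule. Both autosomal sets have their mode at 6.5 kb, and the X windows have a median of 6.0 kb.

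The same stretches were visible in all 7 libraries. Their position was set by the pair, so the other 5 give a reading that the position did not use. Inside the stretches WT replicates 1, 2 and 3 had means of 0.454, 0.90 and 0.899 CPM per kb, and in the 10 kb on either side 0.172, 0.284 and 0.299 CPM per kb. Tet2 CKO replicates 1 and 4 had 0.871 and 0.856 CPM per kb inside and 0.273 and 0.292 CPM per kb outside. Inside was therefore 2.64, 3.17 and 3.01 times outside in the WT replicates, and 3.19 and 2.93 times in Tet2 CKO replicates 1 and 4. In each of these 5 libraries, between 844 and 856 of the 880 stretches lay above their own flanks.

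Tet2 CKO replicates 2 and 3 had 3.59 and 3.66 CPM per kb inside and 0.572 and 0.564 CPM per kb outside, or 6.28 and 6.49 times. The stretches were drawn where the pair was high, which raises its own ratio. The ratios of the pair and of the other 5 are therefore not compared. The pair was above the other 5 in the flanks too. The bins within a window were ordered alike, with a median Spearman rho over the 20 bins of 0.812 between replicates 2 and 3 and of 0.784 between the pair and the other 5. These values are descriptions, since neighbouring bins share fragments and all libraries share the mappable positions.

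The mean signal around the chosen windows was higher in the pair than in the other 5 over long distances, while for the median window this reached less far. In the adjoining windows, other members left out, the mean signal of the pair was 2.22 times that of the other 5 on the lower side and 2.26 times on the upper side, against 4.25 times in the chosen windows. At 100 kb it was 1.92 and 1.89 times, at 500 kb 1.52 and 1.52 times, and at 1000 kb 1.30 and 1.38 times. Over all windows tested the same ratio of means was 1.00. The medians of the pair stayed above those of the other 5 over a shorter range. In the adjoining windows on the lower side they were 4.44 and 4.23 CPM in the pair against at most 2.91 CPM in the other 5. At 400 kb on the upper side they were 3.32 and 3.23 CPM in the pair against at most 3.12 CPM. At 400 kb on the lower side they were 2.87 and 2.82 CPM in the pair, with 2.94 CPM in WT replicate 3. At 1000 kb on that side they were 2.51 and 2.57 CPM in the pair, below the 2.87 to 3.12 CPM of WT replicates 2 and 3 and Tet2 CKO 1 and 4. At 1000 kb on the upper side the pair had 2.87 and 2.82 CPM, against 2.79 to 3.15 CPM in these 4 libraries. WT replicate 1 had 1.87 CPM on both sides. The median window at that distance was therefore not above all of the other 5 in the pair. Over all windows tested, the medians of the pair, 2.78 and 2.74 CPM, lay further below those of the same 4 libraries, 3.86 to 3.95 CPM.

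**Figure D4:**
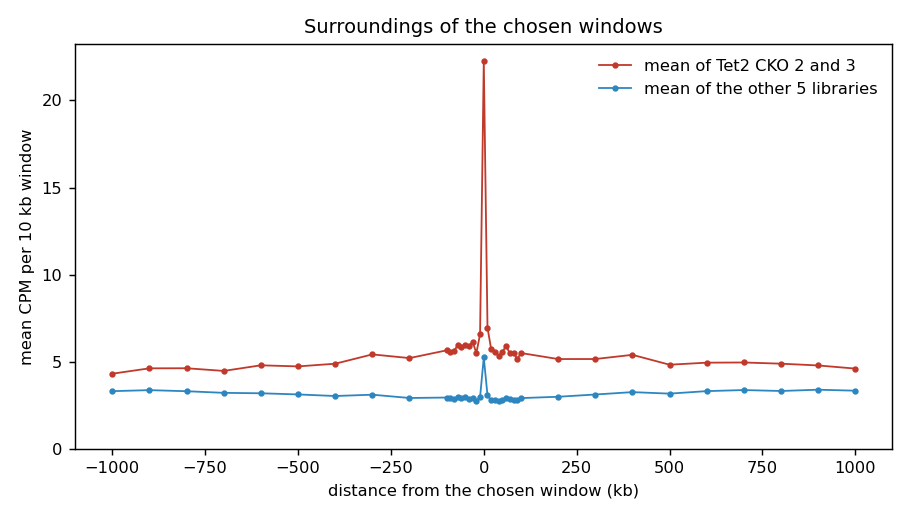
Mean signal per 10 kb window, in CPM, against the distance from the chosen window in kb, for the mean of Tet2 CKO 2 and 3 and the mean of the other 5 libraries, with other members left out. The pair has 22.3 CPM in the chosen windows and 5.65 and 5.50 CPM at 100 kb on either side, where the other 5 have 2.94 and 2.91 CPM.

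Average levels in tiles of 1 Mb gave the same picture as the means above, without the chosen windows themselves. Of 2417 autosomal tiles, 1825 held no member, 401 held 1 and 191 held 2 or more. With the members left out, the log2 ratio of the pair to the other 5 had a median of -0.31 in tiles with no member, 0.76 in tiles with 1 and 1.06 in tiles with 2 or more. The other 5 had a median of 4.35 CPM per window in tiles with no member, 3.13 CPM with 1 and 2.99 CPM with 2 or more. The chosen windows thus lay in neighbourhoods that were on average lower in the other 5 and higher in the pair than tiles with no member. The windows themselves were above their neighbourhood in each of the 7 libraries on average. The rule chose windows high in the pair and capped in the other 5, and nearby windows may share their level. The contrast between tiles is therefore a description.

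Most tiles with members held 1, and few held many. The tile at chromosome 7, 21000001 to 22000000, held 8, and the next tile on that chromosome held 5. Tiles at chromosome 14, 42000001 to 43000000, and chromosome 17, 23000001 to 24000000, held 6 each. In all, 621 of the 880 had another member within 1000 kb, 208 within 100 kb and 32 in a touching window.

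All 19 autosomes held members. The share of windows chosen was highest on chromosome 7 (89 windows, 0.671%), chromosome 3 (76 windows, 0.519%) and chromosome 17 (43 windows, 0.498%). It was lowest on chromosome 11 (24 windows, 0.209%), chromosome 18 (19 windows, 0.227%) and chromosome 15 (24 windows, 0.253%). Chromosome 3 also had the highest and chromosome 11 the lowest median ratio of the pair to the other 5 over all windows, at 0.905 and 0.610, and chromosome 7 had a ratio of 0.738, near the 0.745 of all windows. The high count of chromosome 7 was therefore not matched by a high ratio over the whole chromosome. The level of the members differed little between chromosomes, with a median for the pair between 20.4 and 25.7 CPM.

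Members became rarer toward the high-numbered, distal end of the chromosomes. Mouse autosomes have their centromere at the low-numbered end. Each chromosome was divided into 10 equal parts from its first to its last window tested. Part 1 held 126 members (0.555% of its windows), part 5 held 105 (0.471%) and part 10 held 37 (0.160%). Parts 7 and 9 were also low, at 0.247% and 0.219%, with 0.406% in part 8. Windows low in the pair by the same rule turned round, where both had at most 1 part in 3 of the lowest of the other 5, ran the other way, from 2.37% in part 1 to 6.70% in part 10.

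**Figure D5:**
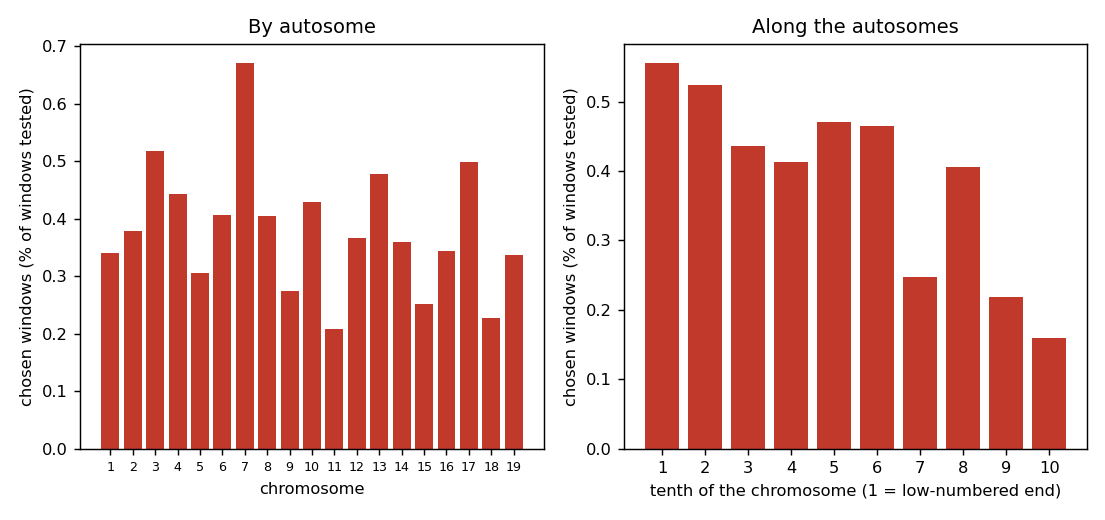
Share of the tested windows that were chosen, in %, by autosome on the left and by 10 equal parts of the chromosome from the low-numbered end on the right. Chromosome 7 has the highest bar at 0.671% and chromosome 11 the lowest at 0.209%, and the share is 0.555% in part 1 and 0.160% in part 10.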

How the data were processed

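The authors deposited raw read counts per 500 bp bin for 7 libraries, with no normalization. Per the submitters' processing notes, Bowtie2, HOMER and DESeq2 were used and the build was mm9; the tools' roles and versions, and the handling of duplicate and multiply mapped reads, are not given in the sources used here. Counts were summed to 10 kb windows by bin start. Tests used R 4.3.3 with edgeR 4.0.16 (TMM factors, quasi-likelihood, two-sided, Benjamini-Hochberg over all windows tested, adjusted p under 0.05), tested on simulated data. Of 50 simulated windows each changed 2, 4, 8 and 16-fold, the fit of 5 libraries recovered 0, 23, 43 and 48. The fit of 7 libraries recovered 0, 6, 17 and 35. Small changes would therefore be missed by either fit. DESeq2 1.42.0 was an alternative, with a local trend. Each SE is the absolute log2 fold change over the square root of F. Python 3.11.15, pandas 2.3.3 and numpy 2.4.6 were used for the rest.

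The members and lists were chosen with earlier results of these data known. Regions were named by rule: the 5 longest runs (ties by chromosome and start), the 5 highest ratios, the 3 smallest p in each direction over 5 libraries, the 5 nearest windows on each side of the threshold, and the 3 highest and 3 lowest chromosomes. The densest tiles were named after their values were seen. The stretch and tile measures were also chosen after the data were seen. Gene, GC and sequence comparisons planned for an mm9 reference were not run. The planned permutation test of the share of reads is not reported, because the rule used the same libraries.

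The labels give replicates 1 to 3 of both genotypes the same numbers. For numbers 1, 2 and 3, the correlation of same-numbered libraries' deviations in log2(CPM + 0.5) was 0.548, 0.298 and 0.341. These values exceeded the bound of 0.1 for pairing. Correlations between differently numbered libraries are not given. In both genotypes, number 1 had the lowest median in the chosen windows and the highest in the windows low in the pair. In Tet2 CKO the place of number 1 against numbers 2 and 3 in these windows was set by the rule. The shares of reads in high-count bins were not set by it. In WT they were 54.3% and 49.6% in numbers 2 and 3 against 29.8% in number 1. In Tet2 CKO they were 69.8% and 74.1% against 50.4%. Values above the bound can arise from such a split between numbers, so the check cannot decide pairing by number. The pairing therefore rests on the labels' numbers alone.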

Additional observations from a re-analysis of the deposited data

Results flagged for a closer look

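The X and Y chromosomes were outside the rule, and the same rule with autosomal scaling found windows there. On the X chromosome 154 of 9845 windows (1.56%) met it, against 0.388% of autosomal windows. Their medians were 13.9 and 14.9 CPM in Tet2 CKO replicates 2 and 3, 1.80, 3.24 and 3.71 CPM in WT replicates 1, 2 and 3, and 3.19 and 3.55 CPM in Tet2 CKO replicates 1 and 4. The raised stretch in these windows had a median of 6.0 kb with quartiles of 4.1 and 6.5 kb. On the Y chromosome 6 of 160 windows (3.75%) met the rule. Over all X windows the median was 3.86 and 3.81 CPM in the pair and between 1.35 and 2.36 CPM in the other 5. The ratio of the lower of the pair to the highest of the other 5 had a median of 1.12 there. It reached 2 in 17.6% of X windows. Over all Y windows the median was 6.01 and 5.47 CPM in the pair and between 1.25 and 2.72 CPM in the other 5. The median level of both chromosomes was therefore higher in the pair than in any other library. The cause was not tested.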

How the results depend on the processing

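The number of chosen windows rests on the rule. With a ratio of at least 2 there were 12371 windows in 10487 domains, and with TMM scaling 6262 windows in 5707 domains, which held all 880 in both cases. A ratio of 5 gave 0 windows and 0 domains, since the highest ratio was 4.42. No dropped bins, or scaling by the total of all bins, also gave 0 windows and 0 domains. Scaling by all bins lowers the CPM of the pair most. The high-count bins held 69.8% and 74.1% of the reads of the pair and at most 54.3% in the other 5. The cause of the difference in these shares was not tested. Windows of 20 kb gave 197 windows in 190 domains, and windows of 50 kb gave 18 domains. Leaving out 1 library gave 881 to 2275 windows in 865 to 2184 domains. Dropping WT replicate 2 or 3 gave 1515 or 1765 windows, and dropping Tet2 CKO replicate 1 or 4 gave 1399 or 1408, where fewer libraries set the ceiling. Other count filters, a bound of 50 for dropped bins and a shift of 5 kb kept the number within 1.5 times.

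The difference in the share of reads ran from -0.0147 to 0.105 percentage points with 1 library left out, and was -0.0147 without WT replicate 1. Over the 5 libraries, DESeq2 called 2 windows, edgeR called 0 to 2 with 1 library left out, and no setting called a chosen window. Over 7 libraries, the number of windows called was 431 by DESeq2, 7 of them chosen, and 55340 with the replicate block, 876 of them chosen. Each library left out gave 0, and no other setting of that fit called a window. The cause of these differences between tools and designs was not tested. Depth limits windows such as the 40 with under 20 reads in 1 of the other 5. No paired analysis was possible for the comparison of 5 libraries, because the WT libraries and Tet2 CKO replicates 1 and 4 share only the number 1.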

Other observations

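Windows low in Tet2 CKO replicates 2 and 3 were more frequent than the chosen ones, with 9151 (4.03%) in 7941 domains, of which 6936 were single windows and the longest held 6. Their medians were 0.897 and 0.995 CPM in the pair, 5.74 and 5.61 CPM in WT replicates 2 and 3, and 5.98 and 5.81 CPM in Tet2 CKO replicates 1 and 4, close to the levels of these 4 libraries in the chosen windows. WT replicate 1 was the highest library there, at 8.07 CPM, where it was the lowest in the chosen windows, at 3.05 CPM.

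In the 500 bp bins of the chosen windows that held reads, an even number of reads was found in 59.1% and 57.2% of the bins of Tet2 CKO replicates 2 and 3, and in 71.4% to 78.1% in the other 5. Over all bins with reads the shares were 74.9% and 71.9% in the pair and 71.7% to 83.6% in the other 5. The chosen windows hold more reads in the pair by the rule, and whether the lower shares there go with that was not tested.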
